A study of Macaca mulatta with 24 samples.

Results

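The liver and the hippocampus of the same Rhesus macaque fetuses were compared across all transcripts. The comparison took all 8 liver libraries and all 8 hippocampus libraries of the study, 16 of its 24 RNA-sequencing libraries, and matched them by transcript identifier and by fetus. Their mothers had received antenatal corticosteroids by either of 2 routes. In the clinical treatment (4 fetuses), betamethasone phosphate with betamethasone acetate was injected intramuscularly at 0.25 mg/kg, in 2 doses 24 hr apart. With oral Beta-P (4 fetuses), the mother swallowed betamethasone phosphate at 0.15 mg/kg, in 3 doses 12 hr apart. Delivery followed 5 days after the start of treatment in both groups. It was at 132 to 133 days of gestation with the clinical treatment and at 127 to 132 days with oral Beta-P. All 16 libraries therefore came from steroid-exposed fetuses, no untreated fetus was used here, and gestational age differed between the treatments.

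The fetal liver is a secretory and metabolic organ. Its hepatocytes export plasma proteins and handle nutrients, and in the fetus it is also a site of blood formation. The hippocampus is a part of the forebrain that holds neurons, glia and their precursors and is known for its role in memory and for its glucocorticoid receptors. Both are mixtures of cells, so in such bulk RNA fewer cells of a type and less RNA per cell cannot be told apart. The deposited tables list Ensembl transcript identifiers that could not be paired with gene names here. The labelled tissues could thus not be checked against hepatocyte or neuron markers, and transcripts are described by level, by difference and by whether they were present in 1 tissue or both.

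The liver libraries held 25803700 to 32122767 counts and the hippocampus libraries 22537044 to 35254898, over 45579 listed transcripts. The deposited liver values are estimated counts, of which 55.4% are not whole numbers, while the hippocampus values are whole. The tissues shared no sequencing run, according to the labels. Of the liver libraries 7 came from 1 run and oral animal 3 from another, and of the hippocampus libraries clinical animals 1 to 3 came from 1 run and the other 5 from another. Tissue, run and the way of counting cannot be told apart in these libraries. In the lung, 2 clinical libraries from the run of the 7 livers (animals 1 and 2) were compared with 2 from the run of clinical hippocampi 1 to 3 (animals 3 and 4). Run and fetus cannot be told apart in this comparison, and it does not cover the run of the other 5 hippocampi. The median difference there was 0.18 on the log2 scale, and edgeR called 0 of 27994 lung transcripts, with 898 at an unadjusted p below 0.05. Among the 16300 transcripts that differed between liver and hippocampus and were tested in the lung, the median was 0.18 between the lung runs. Between the tissues it was 1.85, which is large by selection, and it was 1.26 over all transcripts tested between the tissues. With 2 libraries per run, the absence of calls says little. The lung values are counts and not estimated counts, so the way of counting is not addressed.

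The counts were concentrated in fewer transcripts in the liver than in the hippocampus. The 10 most abundant transcripts of a library held 24.4 to 31.3% of the liver counts (median 28.2%) and 9.21 to 12.4% of the hippocampus counts (median 10.7%). Every liver library was above every hippocampus library. Within a fetus the liver share was higher by 17.3 percentage points ± 2.94 (SD, n = 8), in 8 of 8 fetuses (exact two-sided sign-flip permutation test, p = 0.0078, the smallest that 8 pairs allow). The difference was 18.9 points with the clinical treatment and 15.7 with oral Beta-P (exact permutation test, p = 0.114).

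The smallest set of transcripts that together held 50% of the counts had 57 to 104 members in the liver (median 75.5) and 1177 to 1353 in the hippocampus (median 1222). The within-fetus difference was 1169.5 transcripts ± 63.4 (SD, n = 8), again with the same direction in 8 of 8 fetuses (exact p = 0.0078). Among transcripts whose liver values were all whole, the mean difference (liver minus hippocampus) was -25.6 in place of -1169.5. The single most abundant transcript held 9.78 to 11.7% of a liver library and 1.64 to 2.09% of a hippocampus library. The 100 most abundant held 49.7 to 54.1% of the liver counts and 19.4 to 22.5% of the hippocampus counts.

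More transcripts reached a given share of the library total in the hippocampus. Detection was not counted with the TMM scaling that is used for the calls below. At a level of 1 CPM or more (counts per 1000000 counts of the library), 20305 to 21417 transcripts were detected in the liver and 24289 to 24907 in the hippocampus, with medians of 20731.5 and 24696.5. The hippocampus excess was 3885 transcripts ± 428.3 (SD, n = 8). It was present in 8 of 8 fetuses (exact p = 0.0078). In the same selected subset with whole liver values, the mean difference (liver minus hippocampus) was -2028.5 in place of -3884.75. At 10 CPM the ranges were 8965 to 9784 and 13021 to 13470. These were among 6 such measures, all with the same exact p, so the Benjamini-Hochberg adjusted value was also 0.0078 for each. For none of the 6 was the tissue difference shown to depend on treatment (exact p from 0.114 to 1).

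**Figure D1:**
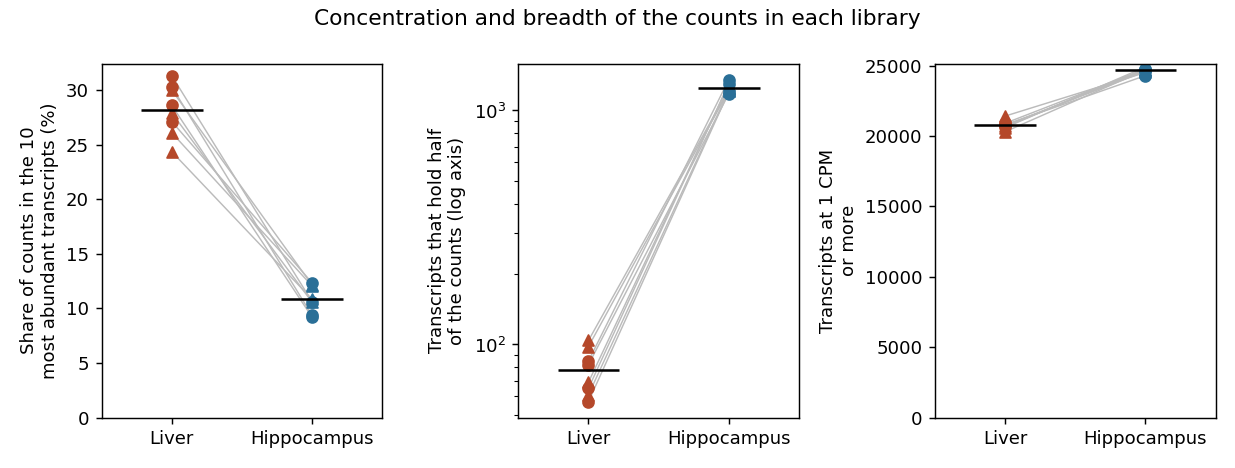
Share of counts in the 10 most abundant transcripts (left, %), number of transcripts that hold 50% of the counts (centre, log axis) and number detected at 1 CPM or more (right), for each liver and hippocampus library. Circles are the clinical treatment, triangles oral Beta-P, grey lines join libraries of 1 fetus and black bars are means (n = 8). In all 3 panels the 8 liver and 8 hippocampus libraries form groups that do not overlap, with liver means of 28.2%, 77.6 and 20768 and hippocampus means of 10.9%, 1247 and 24653.

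The tissue of origin accounted for most of the distance between libraries. Of the total squared distance on the log2 CPM scale over the 28314 transcripts tested, 83.5% lay between the tissues. The root mean square difference per transcript was 3.12 to 3.26 between a liver and a hippocampus library, 1.07 to 1.31 between liver libraries and 0.748 to 0.947 between hippocampus libraries. For the 2 libraries of 1 fetus the difference across tissues was 3.12 to 3.20. Across the 28314 transcripts the mean levels of the tissues correlated with Pearson's r = 0.43 and Spearman's rho = 0.51. By comparison, r was 0.91 to 0.94 between liver libraries and 0.94 to 0.96 between hippocampus libraries. Transcripts are not independent replicates, and libraries of a tissue share the run and the counting.

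Most transcripts differed between the tissues. With edgeR's quasi-likelihood test, blocked by fetus, 8381 transcripts (29.6% of those tested) were higher in liver and 10386 (36.7%) were higher in hippocampus, at a fold change of at least 1.5, p below 0.05 and a Benjamini-Hochberg q below 0.1. The median size of the difference over all tested transcripts was 1.26 on the log2 scale (2.40-fold), against a median standard error of 0.19. All 8 fetuses had the called direction for 7483 of the transcripts higher in liver (89.3%) and 9573 of those higher in hippocampus (92.2%). A stricter view asked for no overlap at all. The 8 liver libraries all lay above the 8 hippocampus libraries for 6975 transcripts (24.6%), and the reverse held for 9040 (31.9%). When the calls were made from 7 fetuses, the remaining fetus showed the same direction for 96.5 to 97.9% of the liver calls and 96.7 to 98.8% of the hippocampus calls.

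The split between the tissues depended on scaling. The TMM method, which assumes that most transcripts do not differ, gave factors of 0.728 to 0.815 in the liver and 1.27 to 1.37 in the hippocampus. With library size alone in place of TMM, 4991 transcripts were higher in liver and 15746 in hippocampus, so that the liver share of all calls was 24.1% instead of 44.7%. The median log2 difference of all tested transcripts (liver minus hippocampus) moved from -0.15 to -0.93. No transcript called under both scalings changed direction, and 3390 transcripts called higher in liver with TMM were no longer so called. The main scaling is used below, and directions of small differences rest on it.

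**Figure D2:**
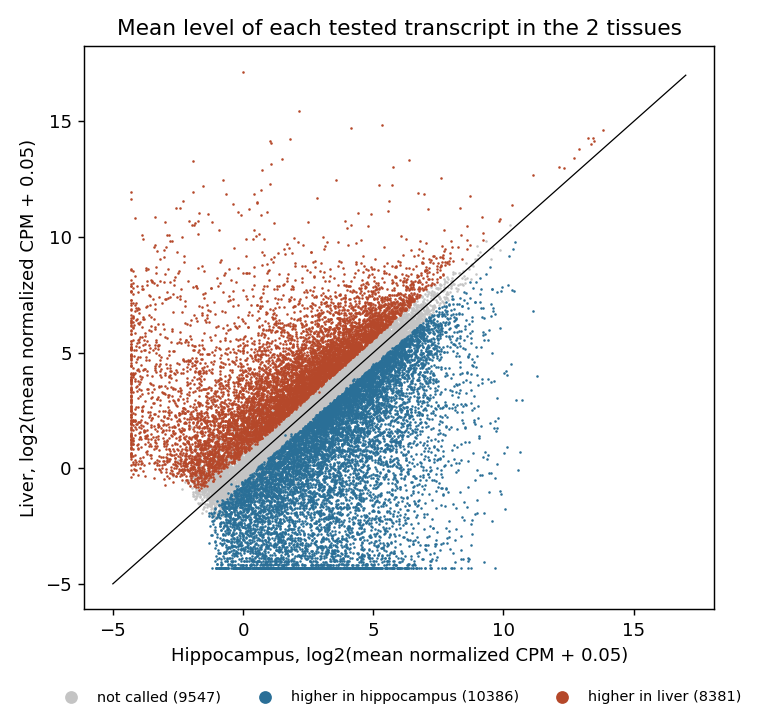
Mean level of each of the 28314 tested transcripts in hippocampus (x) and liver (y), each as log2 of the mean TMM-normalized CPM of 8 libraries plus 0.05. Red points are the 8381 transcripts called higher in liver, blue points the 10386 called higher in hippocampus, grey points were not called, and the line marks equal levels. Points along the left and lower edges had a mean near 0 in hippocampus or in liver, respectively.

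Differences were more often extreme in the direction of the hippocampus. At a fold change of at least 4 there were 3708 transcripts higher in liver and 6176 higher in hippocampus. At 16-fold or more the numbers were 1593 and 3576, and at 64-fold or more 889 and 2171. Many of the last were at the floor in the other tissue. Among the 889, 36.6% had 3 counts or fewer in all 8 hippocampus libraries, and among the 2171, 56.0% had 3 or fewer in all 8 liver libraries. For such transcripts the fitted fold is not a bound.

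**Figure D3:**
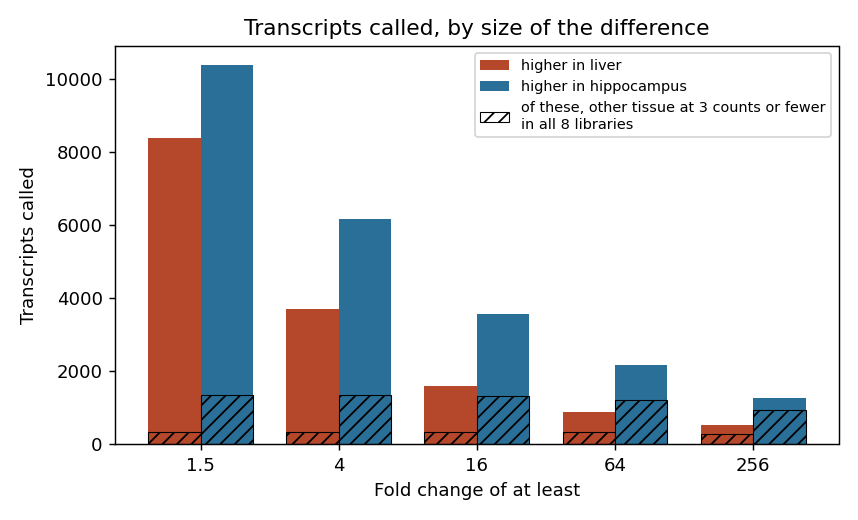
Number of transcripts called higher in liver (red) and in hippocampus (blue), by the smallest fold change required (x). Hatched parts were at 3 counts or fewer in all 8 libraries of the other tissue, 333 of 8381 and 1356 of 10386 at 1.5-fold. Blue bars are higher than red at every step.

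With TMM scaling, the direction of the calls changed with abundance. Of the called transcripts with a mean over both tissues below 0 on the log2 CPM scale, 31.5% were higher in liver. The share was 44.4% from 0 to 3, 51.1% from 3 to 6 and 54.2% from 6 to 9. It was 81.6% at 9 and above, where 31 transcripts were higher in liver and 7 in hippocampus. The median size of the difference in this band was 0.94 on the log2 scale. Library size alone shifted the median difference of all tested transcripts by -0.78, and these shares were not recounted with it. By the level in the tissue where it was higher, 163 liver transcripts and 82 hippocampus transcripts had 512 CPM or more, and 112 and 48 of these differed by at least 16-fold. At 64 CPM or more the numbers were 1575 in liver and 1526 in hippocampus. Among transcripts with at least 10 counts in every library, 5933 were called higher in liver and 5828 in hippocampus, so the excess of hippocampus calls was not present there.

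The counts held by each class were measured in fetuses that had no part in defining the class. For each fetus in turn, classes were called from the other 7. Transcripts at least 16-fold higher in liver then held 45.6 to 50.3% of the counts of its liver library (47.8% ± 1.43, SD, n = 8) and 0.384% ± 0.0256 of its hippocampus library. Transcripts at least 16-fold higher in hippocampus held 22.5 to 24.0% of the hippocampus counts (23.0% ± 0.439, SD, n = 8) and 0.217% ± 0.0171 of the liver counts. The class of its own tissue was thus larger in every liver library than in any hippocampus library. Transcripts that were not called held 13.1% ± 0.502 of the liver counts and 22.4% ± 0.472 of the hippocampus counts.

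**Figure D4:**
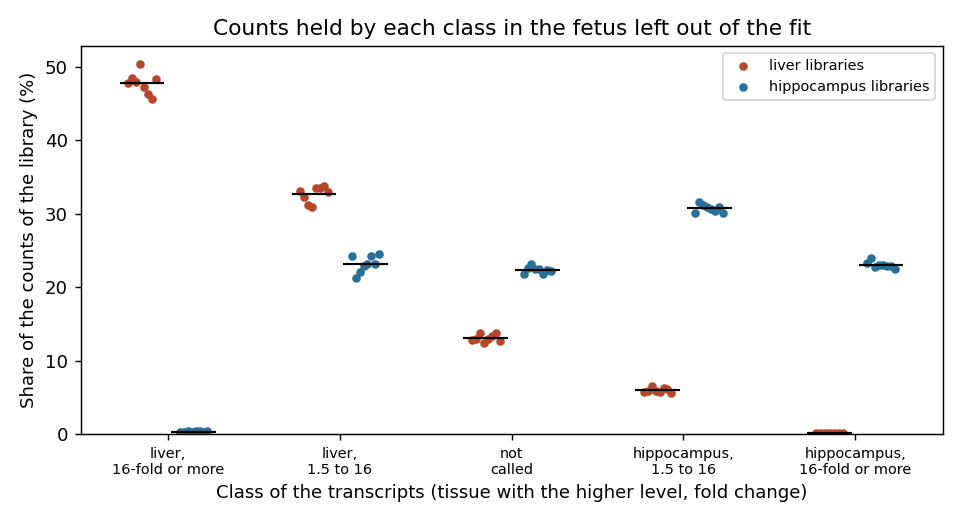
Share of the counts of a library (y, %) held by 5 classes of transcripts (x), where the class was set by the fold change in the other 7 fetuses. Red points are the 8 liver libraries, blue points the 8 hippocampus libraries and black bars the means. Liver points of the class at least 16-fold higher in liver lie between 45.6 and 50.3%, and hippocampus points of the class at least 16-fold higher in hippocampus lie between 22.5 and 24.0%.

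Of the 100 most abundant liver transcripts, 77 were at least 16-fold higher in liver and 1 was not called. Of the 100 most abundant in the hippocampus, 44 were at least 16-fold higher there and 16 were called higher in liver. Among the 10 most abundant hippocampus transcripts, 9 were called higher in liver, by a median of 0.84 on the log2 scale. With library size only, none of these 9 was called in either direction (median 0.06), and of the 16 there were 2 still called higher in liver. A small group of transcripts was abundant in both. The 20 most abundant transcripts of each tissue had 8 in common, which held 10.2% of the liver counts and 9.91% of the hippocampus counts. As shares of counts, all 8 were within 1.5-fold between the tissues, with a median log2 difference of 0.06. After TMM scaling the median was 0.84 higher in liver and all 8 were called, so their direction depends on the scaling. The 100 most abundant of each tissue had 16 in common and the 500 most abundant 109.

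ENSMMUT00000005417.3 was the most abundant liver transcript. Its normalized level in the liver was 120378 CPM at the lowest, 149168 at the median and 158398 at the highest, with a mean of 146179 ± 12913 (SD, n = 8). In the hippocampus it had 0 counts in 6 libraries, 53 in clinical animal 1 and 245 in clinical animal 4. The lowest liver library was oral animal 3, and the tissues were far apart in every fetus (edgeR, adjusted p = 4.27e-05, higher in liver in 8 of 8). The fold change is not given because it depends on the 2 hippocampus libraries that are above 0. In the 8 lung libraries of the same fetuses ENSMMUT00000005417.3 had between 0 and 52 counts. Its 8 liver values were deposited to few digits, so its liver levels are less exact than printed.

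ENSMMUT00000039542.2 was the next most abundant transcript that differed by at least 4-fold. It ranged from 27849 to 66620 CPM in the liver (median 41811) and from 1.79 to 9.19 CPM in the hippocampus (median 3.45), where it had 78 to 383 counts. The difference was 13.4 ± 0.36 on the log2 scale (SE, edgeR adjusted p = 5.19e-09, 8 of 8 fetuses). Among liver libraries the level was 38971 to 66620 CPM with the clinical treatment and 27849 to 44651 with oral Beta-P, so the treatments overlapped. In the lung it had 518 to 1248 counts. The highest hippocampus values, 9.19 and 6.81 CPM, were again in clinical animals 4 and 1.

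Whether these 2 hippocampus libraries stood out for other abundant liver transcripts depended on the fold limit. A set of 281 transcripts had at least 100 CPM in the liver and were at least 64-fold higher there. Of the 264 with any count in the hippocampus, 66 were highest in clinical animal 4, against 14 to 33 in each of the other 7 libraries, of which clinical animal 1 had 33. The summed level was nonetheless lowest in clinical animal 4, at 632 CPM, with 669 to 846 CPM in the others and 484699 to 602524 CPM in the liver. At the largest fold limit in the plot of calls by size, 181 such transcripts had a hippocampus count. Of these, 54 were highest in clinical animal 4 and 29 in clinical animal 1, against 8 to 22 in the others, and the summed levels were 202, 189 and 146 to 179 CPM, respectively. These counts were made after the values had been seen, and their origin was not tested. Without clinical animals 1 and 4, 8205 transcripts were higher in liver and 10092 in hippocampus.

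ENSMMUT00000013672.3 was the most abundant hippocampus transcript among those at least 4-fold higher there. Its level was 2219 to 2802 CPM in the hippocampus (median 2538) and 7.93 to 24.6 CPM in the liver (median 15.5). The groups were separated by a wide gap, with the lowest hippocampus library in oral animal 1 and the highest liver library in oral animal 3. The log2 difference (liver minus hippocampus) was -7.38 ± 0.18 (SE, edgeR adjusted p = 3.64e-09, 8 of 8 fetuses), or 166-fold. The value was not whole in any of the 8 liver libraries and is there an estimated count. The lung libraries had 4709 to 6851 counts.

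ENSMMUT00000067479.1 followed with 1982 to 2492 CPM in the hippocampus (median 2185) and 85.8 to 142 CPM in the liver (median 109). The log2 difference was -4.35 ± 0.11 (SE, edgeR adjusted p = 3.48e-09, 8 of 8 fetuses), or 20.4-fold. Its liver level was well above the floor in every library, and the lung libraries had 8036 to 12417 counts. The 2 leading hippocampus transcripts were at lower levels than the 2 leading liver transcripts. Levels of different transcripts are compared here only as shares of counts, since no transcript lengths were used.

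Some transcripts were present in 1 tissue and at the floor in the other. With at least 10 counts in every library of a tissue and at most 3 in every library of the other, there were 331 liver transcripts (1.61% of the 20523 with at least 10 counts in every liver library) and 1357 hippocampus transcripts (5.53% of 24539). Of these, 146 and 653 had no count at all in the other tissue. The liver transcripts were fewer and more abundant, with a median of 10.7 CPM and a highest mean of 3922 CPM, against 4.79 and 824 CPM in the hippocampus. Set against a floor of 3 counts per library, the median transcript was at least 137-fold higher in liver and at least 34.9-fold higher in hippocampus. Only 43 and 52 of them reached 100 CPM. The cutoffs are raw counts, and 3 counts equalled 0.137 CPM in the liver and 0.0777 CPM in the hippocampus on average. The cutoffs thus favour higher levels and larger bounds for the liver transcripts, by an amount that was not tested.

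All 8 liver values were whole for 59 of the 331 liver transcripts, and for 16.99% of all tested transcripts. They were whole for 990 of the 1357 hippocampus transcripts, which were chosen for 3 liver counts or fewer, and 0 is always whole. In the lung of the same fetuses, 148 of the liver transcripts (44.7%) and 529 of the hippocampus transcripts (39.0%) were also at 3 counts or fewer in all 8 libraries. At the other end, 68 (20.5%) and 157 (11.6%) had at least 10 counts in every lung library. Depth moved these numbers to some extent. With every library thinned to the same TMM-scaled total there were 441 liver and 1207 hippocampus transcripts.

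Fetuses differed more in the liver than in the hippocampus. Over the 8921 transcripts whose mean log2 CPM was 3 or more in both tissues, the median SD between fetuses of the same treatment was 0.21 in the liver and 0.13 in the hippocampus, a ratio of 1.55. The SD was larger in the liver for 79.7% of them. The liver value was higher with the clinical treatment (0.19 against 0.14) and with oral Beta-P (0.20 against 0.12). Among the 884 transcripts with a mean of 6 or more the ratio was also 1.55. Whether the estimated counts or the runs of the liver contribute was not tested.

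Liver and hippocampus of the same fetus deviated together. Deviations from the mean of the tissue and treatment, over the same 8921 transcripts, correlated with a mean r of 0.26 for libraries of the same fetus (0.06 to 0.41). Centring on these means sets the average for different fetuses, so the test compared pairings. Of all pairings of livers and hippocampi within treatments, 1 other came as high (one-sided exact permutation test, p = 0.0035). For 7 of 8 fetuses the liver correlated best with its own hippocampus. The exception among the livers was oral animal 3, whose liver was the library sequenced apart from the other livers. Read from the hippocampus, clinical animal 4 and oral animals 1 and 3 correlated better with another fetus's liver (0.21, 0.26 and 0.16). With their own liver the values were 0.15, 0.24 and 0.06. Among transcripts with only whole liver values the mean r was 0.08 (exact p = 0.0573), which does not pass the threshold.

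**Figure D5:**
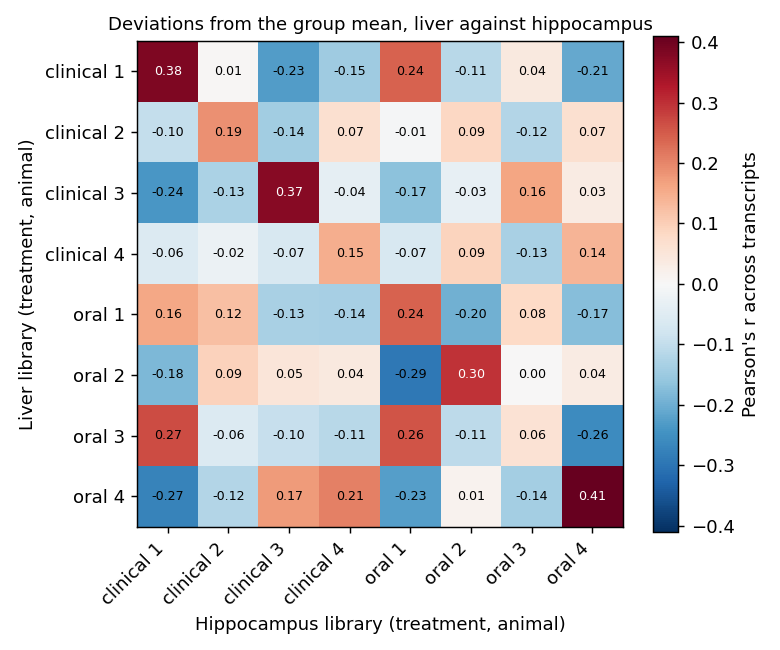
Pearson's r across 8921 transcripts between the deviations of each liver library (rows) and each hippocampus library (columns) from the mean of their tissue and treatment. Red is positive and blue negative, and the diagonal holds libraries of the same fetus, from 0.06 (oral animal 3) to 0.41 (oral animal 4).

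Presence and absence agreed slightly more often within a fetus than between fetuses. On/off transcripts had at most 3 counts in 2 or more libraries of a tissue and at least 20 in 2 or more others. There were 1885 in the liver and 1783 in the hippocampus, of which 527 were on/off in both (27.96% and 29.6%, respectively). Over these, the mean correlation was 0.22 within a fetus (compared over pairings, one-sided exact permutation test, p = 0.0035). The state above or below the mid-level was the same in both tissues of a fetus for 57.3% of the values, against 51.3% in different fetuses. Across both treatments, the livers of clinical animals 1 and 2 and oral animal 3 correlated better with another fetus's hippocampus (0.38, 0.12 and 0.31). With their own the values were 0.34, 0.11 and 0.09. The remaining livers correlated best with their own. For 32 of the 527 the pattern over the 8 fetuses was identical in liver and hippocampus. That number was not compared with different fetuses and is a description.

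Calls for a dependence of the tissue difference on treatment differed between tools. The interaction of tissue and treatment asked whether liver and hippocampus differ by another amount with oral Beta-P than with the clinical treatment. EdgeR called 0 of 28314 transcripts (0%), with a smallest adjusted p of 0.920. At an unadjusted p below 0.05 there were 1521 transcripts (5.37%), 646 with a larger liver-minus-hippocampus difference with oral Beta-P and 875 with a smaller one. DESeq2, run on all listed transcripts, called 141 of 45579, and edgeR without the block by fetus called 11 of 28314. Of the 141, 37 had a tissue and treatment group at the floor, 73 had no library under 10 counts, and 122 of the 128 that edgeR tested had an unadjusted p below 0.05 there. The median size of the interaction was 0.26 on the log2 scale, compared with 1.26 for the tissue difference. With the clinical treatment fitted alone, 7984 transcripts were higher in liver and 9710 in hippocampus. With oral Beta-P alone the numbers were 8011 and 10021. Of the 27946 transcripts tested in both fits, 17470 were called with the clinical treatment and 17446 with oral Beta-P. Of these, 15761 were called in both, and 15760 had the same direction.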

How the data were processed

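Total RNA of fetal liver and hippocampus was sequenced from polyA libraries, and the authors aligned the reads to MMUL1.0 with STAR. The submitters' processing notes also name featureCounts and DESeq2, without versions, and the step that made estimated counts is not given in the sources used here. The authors deposited counts (hippocampus, lung) and estimated counts (liver) per transcript, with no normalization. In the deposited liver table, the 11 values of 1000000 or more are written to few digits. They belong to 2 transcripts, ENSMMUT00000005417.3 and ENSMMUT00000039542.2. Liver values were rounded. Of 45579 listed transcripts, 3361 had no count in the 16 libraries and 13904 were removed as low by filterByExpr.

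The main test was edgeR 4.0.16 (limma 3.58.1, R 4.3.3), with TMM scaling, fetus as a block, tissue, and tissue by treatment. Standard errors came from the F statistic. The animal numbers pair libraries because these come from the same fetus, and the deviations of paired libraries correlated (r of 0.06 to 0.41). Correlations and folds of CPM are on TMM-normalized values. DESeq2 1.42.0 was an alternative, as were other scalings, filters, depths and left-out fetuses. The scripts were tested on simulated data. Each library had 22537044 counts or more. How far counting and the spread between fetuses each limit the precision was not tested.

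The transcripts named were the 2 per direction with the highest mean CPM among those called at 4-fold or more in all 8 fetuses. The comparison, rules and lists were chosen with earlier results of these data known. Lists of hepatocyte, neuron and other markers were not used, because transcript identifiers could not be matched to genes. Lung counts were used only where stated.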

Additional observations from a re-analysis of the deposited data

How the results depend on the processing

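Of 223 alternative values, 197 stayed the same by the rule used, 25 moved, 1 no longer passed its threshold and 0 reversed. By this rule the same does not mean an unchanged size. The sets that held 50% of the counts were classed as the same at -25.6 in place of -1169.5. The spread ratio was classed as moved at 1.547 in place of 1.555. The tally also includes the named transcripts, which were chosen among large differences. The interaction, with 0 calls in the main fit, was among those that moved. The order of the liver and hippocampus call counts, not itself among these values, changed with at least 10 counts in every library. Tested values otherwise kept their direction and their side of the threshold, though some changed in size. Counts of transcripts that moved by more than 1.5 times are given here. With library size only, 4991 transcripts were higher in liver, 15746 were higher in hippocampus, and 85.3% of the squared distance lay between tissues. With at least 10 counts in every library 5933 and 5828 were called, which by construction removes transcripts absent from a tissue. Among transcripts with whole liver values the numbers were 1393 and 2524 of 4924 tested, 59 transcripts were present in liver alone, the same-animal correlation was 0.0793, and the sets that held 50% of the counts differed by -25.6 transcripts (liver minus hippocampus) in place of -1169.5, and those detected at 1 CPM by -2028.5 in place of -3884.75. A fold change of at least 4 with q below 0.01 left 3510 and 5810. With 0 counts required in the other tissue 146 liver and 653 hippocampus transcripts remained, and with at least 100 counts 166 and 692. Over the 500 most variable transcripts 98.7% of the squared distance lay between tissues, and over the 500 with the largest spread the same-animal correlation was 0.45. The interaction gave 141 calls among 45579 listed transcripts in DESeq2, and 11 of 28314 without the replicate block. The fit without the replicate block gave 8539 and 10300 tissue calls, 18474 of them among the 18767 of the blocked fit and in the same direction, and changed no other count by more than 1.5 times. The ratio of liver to hippocampus spread was 1.55 for transcripts with a mean log2 CPM of 6 or more and 1.499 to 1.62 with a fetus left out. With any 1 fetus left out, 8252 to 8370 transcripts were higher in liver, 10227 to 10403 in hippocampus, and 0 had an interaction. A term for tissue by gestational age, leaving out clinical animals 1 and 4, and thinning to the TMM-scaled total were chosen after seeing the data, and changed no call count by more than 1.5 times. The causes of these changes were not tested unless stated. Low counts limit what can be said of transcripts near 3 counts.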

Other observations

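The share of liver counts in the 10 most abundant transcripts was higher at later gestational age, with Pearson's r = 0.83 (exact permutation p = 0.0083, adjusted over 6 relations 0.05) and Spearman's rho = 0.80 (exact permutation p = 0.0214, adjusted 0.129) over 8 fetuses. Without the 2 fetuses farthest from the median age, oral animals 2 and 3, r was 0.28, so the relation rests on these. In the hippocampus r was -0.43 (exact permutation p = 0.290, adjusted 0.434). Without the same 2 fetuses it was -0.81, which was not tested. Age and treatment overlap little, and their parts cannot be told apart. Oral animal 3, the youngest at 127 days, had the lowest liver share (24.4%) and was the only liver of its run. For this library age and run cannot be told apart either. A term for tissue by gestational age, fitted across 28314 transcripts with edgeR, gave 0 calls, with 1518 at an unadjusted p below 0.05 and a smallest adjusted p of 0.805.

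Abundant hippocampus transcripts were also counted at low levels in the liver. A set of 258 transcripts had at least 100 CPM in the hippocampus and were at least 64-fold higher there. Their summed level was 289 to 370 CPM in the liver libraries, against 76360 to 85119 CPM in the hippocampus. Each liver library was the highest for 19 to 45 of the 238 with any liver count, with oral animal 3 and clinical animal 1 at the upper end (45 and 41). The members were chosen by the same contrast, so these values are a description.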
